A study of Homo sapiens with 4 samples.

Results

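The mRNA of MHC class I antigen presentation genes was measured with whole-transcript arrays in SK-N-AS, an established neuroblastoma cell line of human origin. The 9 listed genes were taken by symbol, with 1 probe set each, the brightest where a gene had several. Of the 9, 8 were measured, among 17687 genes with a named probe set, and HLA-B has no value here. Untreated cells were exposed to PBS for 48 h and treated cells to BG-P400-TAT at 30 µM for the same time, with 2 arrays per group. All cultures were of this 1 line and grew in IMDM medium with serum. By the series title the compound targets norepinephrine transport and integrin αvβ3, and the comparison asks which genes respond to it.

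MHC class I molecules show peptides from inside the cell to cytotoxic T cells. The peptides are cut by the proteasome, pumped into the endoplasmic reticulum by the TAP transporter and loaded, with the help of tapasin, onto a heavy chain paired with beta-2 microglobulin. Interferon gamma raises most of these genes, and NLRC5 is the transactivator that acts on class I promoters through factors bound there. Neuroblastoma is known for low class I display at the cell surface, and the mRNA levels below say nothing of the surface. A level is called above background where it lies over the 95th percentile of probe sets made as negative controls. This limit was 6.96 on the log2 scale for means over the arrays, and it was between 7.19 and 7.64 for single arrays, highest on untreated replicate 2.

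In brief, mRNA of HLA-C, B2M, TAP2, TAPBP, PSMB8 and PSMB9 was above background on all 4 arrays, and that of TAP1 and NLRC5 on none. At a stricter limit, the 99th percentile of the negative controls (9.42), the untreated means of HLA-C, TAP2 and TAPBP were not above it, and those of B2M, PSMB8 and PSMB9 were. None of the 8 measured genes passed the test between treated and untreated cells. HLA-C had the largest difference, 0.70 on the log2 scale, and it was 0.15 without untreated replicate 2.

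The promoter stretches below are shown because class I genes are known to share promoter elements, and because TAP1 and PSMB9 lie back to back. RefSeq, GRCh38.p14, gave an entry for 8 of the 9 genes, all but NLRC5. Each sequence is the 250 bases before the gene's annotated start, 5′ to 3′ on the gene's strand. Capitals mark matches, on either strand, to a pair of interferon-type motifs, which resemble interferon response elements (GAANNGAAA, called tight here, and a wide form with GAAA, any 2 bases and GAAA), to TGACG, the core of a CRE, and to ATTGG, the reversed CCAAT box. HLA-C encodes a heavy chain (chr6:31272093-31272342, minus strand), B2M the light chain (chr15:44711267-44711516, plus strand), and TAPBP tapasin (chr6:33314079-33314328, minus strand). TAP1 encodes a transporter subunit (chr6:32853705-32853954, minus strand, the first of its 2 listed starts) and PSMB9 an immunoproteasome subunit (chr6:32853942-32854191, plus strand).
HLA-C: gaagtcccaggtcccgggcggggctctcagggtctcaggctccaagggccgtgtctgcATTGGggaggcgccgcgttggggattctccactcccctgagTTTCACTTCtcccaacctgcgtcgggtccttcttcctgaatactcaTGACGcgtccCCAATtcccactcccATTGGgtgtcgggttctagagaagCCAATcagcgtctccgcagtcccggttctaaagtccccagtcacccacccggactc
B2M: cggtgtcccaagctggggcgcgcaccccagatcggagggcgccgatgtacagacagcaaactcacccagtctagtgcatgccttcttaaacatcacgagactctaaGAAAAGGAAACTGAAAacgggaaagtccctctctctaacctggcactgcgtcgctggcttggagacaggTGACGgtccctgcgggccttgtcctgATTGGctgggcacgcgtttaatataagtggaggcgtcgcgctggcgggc
TAPBP: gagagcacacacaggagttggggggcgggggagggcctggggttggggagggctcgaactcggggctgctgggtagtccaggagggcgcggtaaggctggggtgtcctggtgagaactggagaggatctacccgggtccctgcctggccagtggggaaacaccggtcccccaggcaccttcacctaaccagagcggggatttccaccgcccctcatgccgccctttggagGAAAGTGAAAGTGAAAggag
TAP1: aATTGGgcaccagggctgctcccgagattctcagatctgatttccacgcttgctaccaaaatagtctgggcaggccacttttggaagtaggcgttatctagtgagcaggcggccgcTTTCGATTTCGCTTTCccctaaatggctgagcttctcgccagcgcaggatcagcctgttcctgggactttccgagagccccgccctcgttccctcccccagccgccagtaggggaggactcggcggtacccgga
PSMB9: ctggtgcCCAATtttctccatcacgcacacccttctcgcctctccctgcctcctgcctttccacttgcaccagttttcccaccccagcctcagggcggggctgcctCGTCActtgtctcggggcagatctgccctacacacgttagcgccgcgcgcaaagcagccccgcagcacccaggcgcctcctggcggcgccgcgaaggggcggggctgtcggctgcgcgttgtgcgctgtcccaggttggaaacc

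In the HLA-C stretch the match TTTCACTTC lay 151 to 143 bases before the start, TGACG 105 to 101 bases before it, and the nearest CCAAT 56 to 52 bases before it. B2M held GAAACTGAAA at 138 to 129 bases before the start, overlapping a second match, then TGACG at 75 to 71 and ATTGG at 49 to 45. In both stretches an interferon-type match, TGACG and a CCAAT box followed each other toward the start. TAPBP held a pair of overlapping GAAAGTGAAA matches, the nearer at 14 to 5 bases before the start, and no TGACG or ATTGG. TAP1 held overlapping TTTCGATTTC and TTTCGCTTTC matches, and the PSMB9 stretch held neither interferon-type motif. The annotated starts of TAP1 and PSMB9 are 488 bases apart, and their stretches share 13 bases, in which the same CCAAT box lies. Over the members' listed windows, 4 of 8 genes held the wide form, 3 the tight form, 6 held TGACG and 5 held ATTGG. A gene was counted for a match in any of its windows, and the 8 genes had 10 windows. HLA-B and HLA-C, which are alike in sequence, both held the tight form. Among 35116 RefSeq promoter windows of the same length, each counted singly, 3.02% held the wide form, 6.56% the tight form, 21.2% TGACG and 32% ATTGG. The motifs were chosen with these sequences in view, the overlapping windows of neighbours are not independent, and a match is not evidence of binding.

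The heavy chain gene HLA-C had log2 values of 9.35 (replicate 1) and 8.25 (replicate 2) in untreated cells, and of 9.41 (replicate 1) and 9.59 (replicate 2) in treated cells; other genes are given in this order. Untreated replicate 2 was the low array, 1.10 below the next, and the groups did not overlap by 0.063. The untreated mean was 8.80 ± 0.77 (SD, n = 2) and the treated mean 9.50 ± 0.13 (SD, n = 2). The difference was 0.70 (95% interval -0.13 to 1.53), or 1.62-fold with an interval from 0.92 to 2.88, with a limma adjusted p of 0.948. Without untreated replicate 1 the difference was 1.25, and without untreated replicate 2 it was 0.15. HLA genes are alike in sequence and vary between people, so probes of HLA-C can also take up RNA of other class I genes or miss an allele, and its value is uncertain in that respect.

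B2M, the light chain shared by all class I molecules, was at 15.71 and 15.70 in untreated and 15.78 and 15.74 in treated cells. The 4 values lay within 0.084 of each other, and 98.4% of the 9960 probe sets above background had at least that range. The groups did not overlap, by 0.027. The difference was 0.056 (interval -0.37 to 0.48), 1.04-fold, with a limma adjusted p of 0.997. At values this high an array can respond less than in proportion to RNA, which was not tested. In RNA from a whole culture, fewer cells with an mRNA and less of it per cell cannot be told apart.

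The transporter subunit gene TAP1 was below background on every array, at 5.64 and 6.42 in untreated and 6.34 and 6.07 in treated cells. Of the 612 negative-control sets, 84 were at least as bright as TAP1 in untreated cells. No fold is given for it. TAP2, the other subunit, was above background on all 4 arrays, at 8.08 and 7.94 in untreated and 7.84 and 8.17 in treated cells. The TAP2 groups overlapped, the difference was -0.0089 (interval -0.49 to 0.48), and its sign turned without untreated replicate 1 (0.064) or treated replicate 1 (0.16). TAPBP, tapasin, which holds the empty class I molecule at the transporter, was at 8.81 and 9.23 in untreated and 9.26 and 9.30 in treated cells. Untreated replicate 1 was the low array for TAPBP, and the groups did not overlap, by 0.032. The difference was 0.26 (interval -0.24 to 0.76), 1.20-fold, and it was 0.049 without untreated replicate 1 and 0.47 without untreated replicate 2.

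PSMB8 and PSMB9 encode catalytic subunits that replace PSMB5 and PSMB6 in the immunoproteasome. PSMB8 was at 11.11 and 11.53 in untreated and 11.26 and 11.54 in treated cells. PSMB9 was at 11.91 and 12.55 in untreated and 12.22 and 12.55 in treated cells. For both genes the arrays numbered 2 were the high ones in each group, and the groups overlapped. The difference was 0.081 (interval -0.45 to 0.61) for PSMB8 and 0.15 (interval -0.47 to 0.78) for PSMB9. Both signs turned with an array left out, to -0.13 for PSMB8 and -0.16 for PSMB9 without untreated replicate 1, and to -0.058 and -0.0074 without treated replicate 2. PSMB9 was above background on all 4 arrays and its back-to-back neighbour TAP1 on none, but levels of different probe sets are not comparable. For TAP1 this bounds what its probe set shows and is not an absence of the mRNA. Transcription from either promoter was not tested. PSMB8-AS1, an antisense RNA whose RefSeq span overlaps PSMB8 and TAP1, was below background on every array (4.59 to 4.78). It was chosen for mention after its value was seen.

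NLRC5, the class I transactivator gene, was at 4.14 and 3.62 in untreated and 3.57 and 4.17 in treated cells, below background on every array. Of the 612 negative-control sets, 330 were at least as bright as NLRC5 in untreated cells. A level within the negative controls is a bound on what this probe set shows, not an absence of the mRNA.

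**Figure D1:**
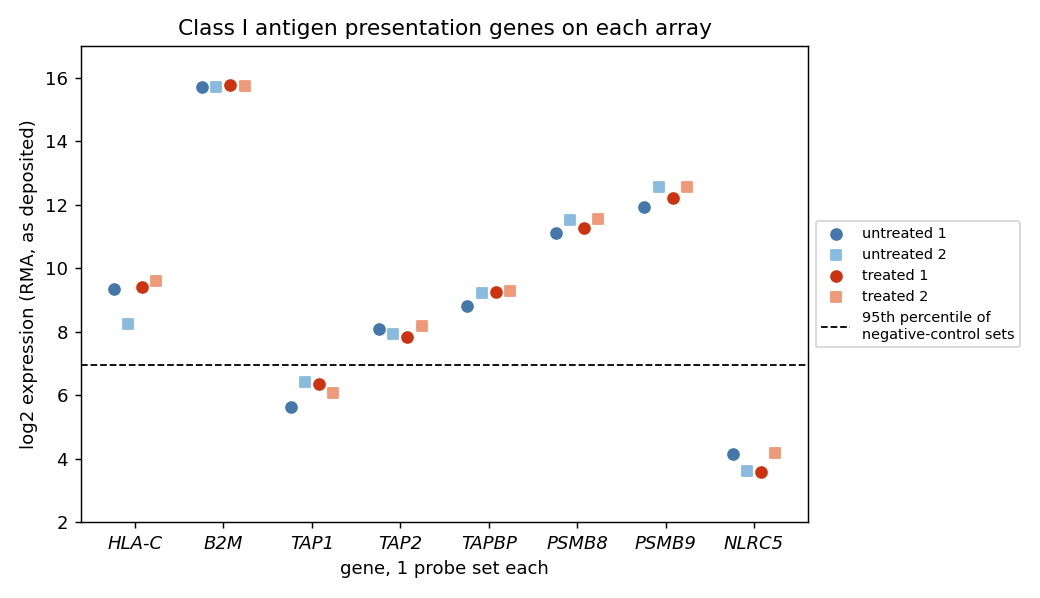
Log2 expression (y axis, RMA values as deposited) of the 8 measured genes (x axis), 1 point per array. The dashed line is the background limit for means over the arrays, 6.96, and the limits of single arrays, 7.19 to 7.64, are not drawn. TAP1 and NLRC5 lie below it on all 4 arrays, and the point for HLA-C on untreated replicate 2 lies at 8.25, apart from the other 3. Heights of different genes are not comparable.

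Across all 21448 probe sets, limma called 0 at an adjusted p under 0.05, or 0%, with none below 0.948. Without adjustment, p was under 0.05 for 1089 probe sets, 5.08% of those tested, and for 0 of the 8 measured members. In 3 of the 8, namely HLA-C, B2M and TAPBP, both treated arrays lay above both untreated arrays, as they did in 16.4% of all probe sets tested and in 20.9% of those above background. In 0 of the 8 both treated arrays lay below both untreated arrays, which held for 16.8% of all. Treated means were higher for 5 of the 6 members above background, beside 58.6% of all probe sets above background. The median difference of these 6 was 0.12, beside 0.038 over all probe sets above background and -0.0046 over all tested. These 6 are the members that passed the limit by their mean over all arrays. The intervals of B2M, TAP2, TAPBP, PSMB8 and PSMB9 lay within 2-fold in both directions, and that of HLA-C reached 2.88-fold. For a single gene in this design, exact permutation gives a two-sided p of 0.333 at the least.

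**Figure D2:**
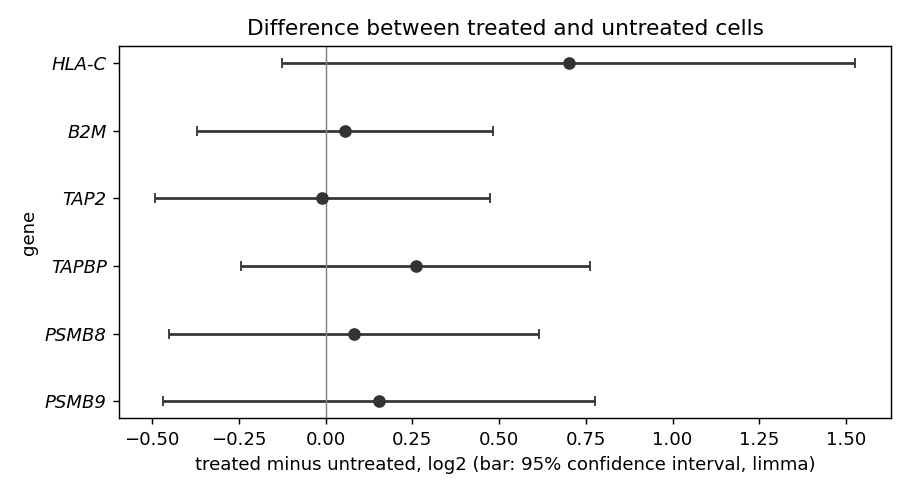
Treated minus untreated on the log2 scale (x axis) for the 6 members above background (y axis), with 95% intervals from limma as bars, n = 2 arrays per group. All 6 intervals include 0. HLA-C has the largest difference, 0.70, and the widest interval.

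The 6 genes above background had different profiles over the arrays. HLA-C had a range of 1.34, which 0.201% of the probe sets above background reached. Untreated replicate 2 was the lowest array for 38.1% of those sets, but in 2 of the 9960, HLA-C included, it lay as far below the next array as in HLA-C. The same array stood apart in general. Its median absolute difference over all probe sets was 0.237 to 0.244 to the other arrays, and 0.193 to 0.208 between the others. HLA-C was low on it while TAPBP, PSMB8 and PSMB9 were above their own means. Among pairs of members above background, PSMB8 and PSMB9, which lie near each other on chromosome 6, had the closest profiles. Their Euclidean distance, over 4 values each centred on its gene's mean, was 0.17, and the next pair, TAPBP and PSMB8, was at 0.25. HLA-C was at 0.98 or more from each of the other 5. In PSMB8 and PSMB9 both arrays numbered 2 lay above both arrays numbered 1, as in 13.4% of the probe sets above background.

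Of 8721 other genes above background, PML, LTBP3 and ELAVL2 had profiles closest to that of HLA-C, the member with the largest range, by the same distance over 4 arrays (0.19, 0.20 and 0.23). PML, which encodes the scaffold of PML nuclear bodies, was at 7.52 and 6.66 in untreated and 7.74 and 8.001 in treated cells. LTBP3, a latent TGF-beta binding protein, was at 7.95 and 6.77, then 7.74 and 8.10. ELAVL2, a neuronal RNA-binding protein, was at 8.32 and 7.41, then 8.53 and 8.47. All 3 were lowest on untreated replicate 2, where each was below that array's own limit.

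**Figure D3:**
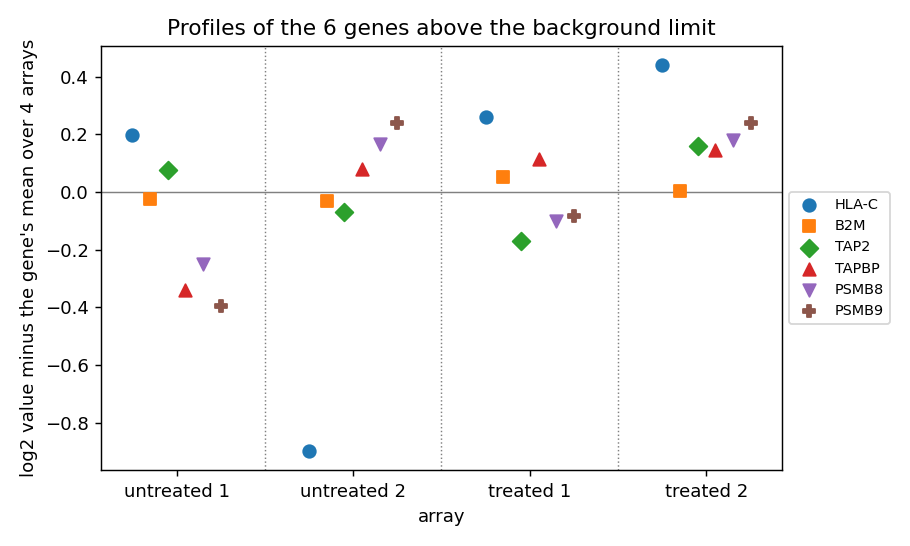
Log2 value minus the gene's own mean over the 4 arrays (y axis) on each array (x axis) for the 6 members above background, 1 marker shape per gene. HLA-C is 0.90 below its mean on untreated replicate 2, PSMB8 and PSMB9 are high on both arrays numbered 2, and B2M stays within 0.052 of its mean.

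The other genes of the pathway were examined by role, from lists made with earlier results of these data known. No gene of any list passed limma's test in either direction, over 59 genes measured in 8 lists, and 3 of the 59, IRF1, HLA-DOB and IRF7, all below background, had an unadjusted p under 0.05, beside 5.08% of all probe sets. Among other heavy chain genes, HLA-F was at 8.93 and 9.19 in untreated and 8.77 and 8.87 in treated cells, and HLA-G at 8.23 and 8.33, then 8.06 and 8.13. In both, the treated arrays lay below the untreated ones, as in 11.5% of all probe sets above background. The differences were -0.24 (interval -0.70 to 0.23) for HLA-F and -0.18 (interval -0.61 to 0.25) for HLA-G, opposite in sign to HLA-C. HLA-F had -0.11 without untreated replicate 2. The untreated means of HLA-F (9.06) and HLA-G (8.28) were not above the stricter limit of 9.42. As for HLA-C, probes of both can also take up RNA of other class I genes, which was not tested. MR1, which presents microbial metabolites and was named after its value was seen, had 0.098. It was above background by its mean but on only 1 of the 4 arrays. The difference between these genes and HLA-C was not tested. HLA-E, a ligand of natural killer cell receptors, was below background on every array (4.51 to 4.90). As with NLRC5, this bounds what the probe set shows and is not an absence of the mRNA.

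In peptide loading and trimming, 5 of 6 genes were above background, and 4 of the 5 had higher treated means, beside 58.6% of all probe sets above background, with a median of 0.093. Without untreated replicate 2 this was 2 of 5, with a median of -0.0060. The chaperone genes CALR and CANX, calreticulin and calnexin, had differences of 0.16 (interval -0.27 to 0.59) and 0.16 (interval -0.28 to 0.60), and CANX had 0.079 without untreated replicate 2. Both treated arrays lay above both untreated arrays in these 2 genes, as in 20.9% of all probe sets above background, and below them in ERAP1, as in 11.5%. PDIA3, a disulfide isomerase of the loading complex, had 0.045, TAPBPL, a tapasin-related editor, 0.093, and ERAP1, an aminopeptidase that trims peptides, -0.17 (interval -0.61 to 0.26). ERAP2, a related aminopeptidase, was below background on every array (4.91 to 5.09). The signs of PDIA3 and TAPBPL turned without untreated replicate 2.

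Each catalytic subunit of the immunoproteasome can be set beside the constitutive one it replaces. PSMB5 was at 13.58 and 13.71 in untreated and 13.99 and 13.92 in treated cells, a difference of 0.31 (interval -0.13 to 0.75), beside 0.081 for PSMB8. PSMB6 was at 10.94 and 11.37, then 10.83 and 11.23, a difference of -0.12 (interval -0.69 to 0.44), beside 0.15 for PSMB9. PSMB7 was at 13.76 and 13.85, then 13.93 and 14.09, a difference of 0.21 (interval -0.23 to 0.65). PSMB10, which replaces PSMB7, was at 7.16 and 7.73, then 7.23 and 7.58, above background on 3 of the 4 arrays and by its mean, with a difference of -0.040. PSME1, a subunit of the interferon-inducible proteasome activator, had 0.033 (interval -0.41 to 0.48). PSMB6, PSMB10 and PSME1, like PSMB8 and PSMB9, were higher on both arrays numbered 2 than on both numbered 1, as were 13.4% of all probe sets above background. PSMB5 and PSMB7 did not have this order, and MR1, RFXANK and IFNGR1, outside the proteasome, did. PSME2 has no value here.

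Of 12 class I promoter factors, 11 were above background, with a median difference of 0.034. Treated means were higher for 6 and lower for 5, beside 58.6% higher among all probe sets above background. The median turned negative after quantile normalization (-0.0049, 4 of 11 higher), after cyclic loess (-0.011, 4 of 11), without treated replicate 1 (-0.047, 3 of 11) and without untreated replicate 2 (-0.047, 5 of 11). The RFX complex genes, whose product binds the X box with NLRC5, had differences of 0.034 for RFX5 and 0.10 for RFXANK. That of RFXAP, which was above background on 2 of the 4 arrays, was -0.33 (interval -0.90 to 0.24). RFXAP had -0.091 without untreated replicate 1 and -0.56 without untreated replicate 2. IRF2, which binds interferon response elements, was above background with an interval of -0.62 to 0.62. IRF1, an interferon-induced activator of class I genes, was below background on every array, and no fold is given. It was at 4.83 and 4.31 in untreated and 5.54 and 5.45 in treated cells. EZH2, the methyltransferase of Polycomb repression, had -0.066. In the interferon gamma receptor pathway 3 of 5 measured genes were above background, among them the receptor gene IFNGR2 at -0.077 and the kinase gene JAK1 at 0.10.

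**Figure D4:**
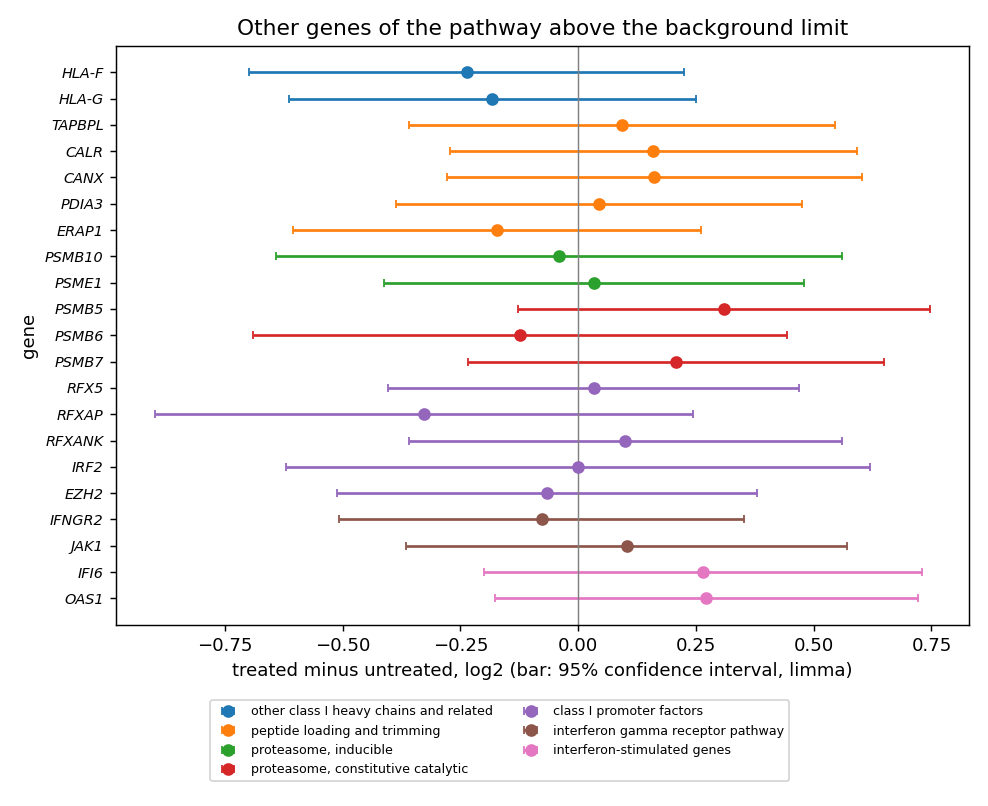
Treated minus untreated on the log2 scale (x axis) for 21 named pathway genes above background (y axis), coloured by list, with 95% intervals from limma as bars, n = 2 arrays per group. All 21 intervals include 0, and the points lie between -0.33 for RFXAP and 0.31 for PSMB5.

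Of 11 measured MHC class II genes, which serve antigen presentation to helper T cells, 0 were above background on any array. CIITA, their transactivator, ranged from 3.48 to 4.32 and CD74, the invariant chain, from 4.36 to 5.04. Of 15 interferon-stimulated genes, 5 were above background, and IFI6 and OAS1, named by their high signal, were higher on both treated arrays, as were 20.9% of all probe sets above background. The other 3, GBP1, GBP2 and IRF9, named after their values were seen, had overlapping groups, with differences of 0.056, 0.056 and -0.18. GBP1 was above background by its mean and on 3 of the 4 arrays. The median of the 5 was 0.056, or -0.039 without treated replicate 1. IFI6 was at 11.53 and 11.64, then 11.72 and 11.99, a difference of 0.26 (interval -0.20 to 0.73). OAS1, an RNA-sensing synthetase, was at 9.97 and 9.77, then 10.19 and 10.10, a difference of 0.27 (interval -0.18 to 0.72). With an array left out, IFI6 had 0.13 at the least, without treated replicate 2, and OAS1 0.17, without untreated replicate 2.

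The label of the cells was set against marker genes. Of 7 measured adrenergic neuroblastoma markers 5 were above background on all 4 arrays, with TH and DBH, which make catecholamines, on none, and of 8 mesenchymal markers 7 were. Of 8 leukocyte markers, PTPRC and CD68 were above background on all 4 arrays and CD3E, CD8A, MS4A1, CD14, ITGAM and LYZ on none. PTPRC, the leukocyte antigen CD45, was at 12.75 and 12.80 in untreated and 12.71 and 12.57 in treated cells. Of 3 endothelial markers 0 were above background on any array. PTPRC was singled out after its value was seen, whether its probe set also takes up other RNA was not tested, and the part of these marker levels in the class I values was not tested.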

How the data were processed

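Total RNA of SK-N-AS cells was hybridised to 4 whole-transcript arrays, 2 untreated and 2 treated. The deposited values are log2 expression per probe set, made by the authors with RMA in Transcriptome Analysis Console 4.0.1.36, per the submitters' processing notes. RMA quantile-normalizes the arrays, so a shift common to most genes would be removed. The range of the values shows the log2 scale. No source used here gives the probe sets' genome build. The number of arrays limits the precision, and nothing says how cultures of a group were separated, so p-values cover array-to-array spread alone, which may be technical.

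Of 24351 probe sets, 2903 controls were left out and 21448 entered one group term in limma (version 3.58.1, lmFit then eBayes; R version 4.3.3). Tests were two-sided, and p was adjusted over all of them by Benjamini-Hochberg, at 0.05. The fit was tested on simulated data. The shifts set there were larger than any member's difference in the main fit, so recovery of differences as small as these was not tested. Named were 17709 probe sets through the platform annotation, all with identifiers in RefSeq, and 3739 are unnamed here. The 9 members, a fixed set of pathway genes, up to 2 bright genes per other list and the 3 nearest profiles to the most variable member were named by rule. Members and lists were chosen with earlier results of these data known. Alternatives were other normalizations, filters, a floor, variance moderation, a replicate block, each array left out, the mean of a gene's probe sets and other background limits. Arrays of like number did not deviate together, with a correlation of -0.00085 over all probe sets.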

Additional observations from a re-analysis of the deposited data

How the results depend on the processing

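No member and no named pathway gene passed the threshold under any of the 14 alternatives to the fit in which it was kept. TAP1 had a difference in 12 of these and NLRC5 in 11, as filters or the floor left them out of the others. Adding a replicate block also left 0 probe sets past the threshold (smallest limma adjusted p 0.929). The labels do not say whether arrays of like number belong together. Raising dim values to a floor gave 10 probe sets past the threshold, with 0 members among them, at a setting that holds 11566 probe sets at fixed values on all arrays. With the 99th percentile of the negative controls as the limit, 3 in place of 6 members were above background in untreated cells, without HLA-C, TAP2 and TAPBP. With an array left out, the number of members above background with higher treated means was 3 to 6 and their median difference 0.036 to 0.25. The log2 difference of NLRC5, of values below background, was 0.071 after quantile normalization and 0.067 after cyclic loess, that of RFX5 -0.0049 and -0.011, that of PSME1 -0.0060 after cyclic loess and that of IRF2 0.0025 after median centring. Signs also turned with an array left out. The ranges were -0.30 to 0.29 for NLRC5, -0.21 to 0.57 for TAP1, -0.17 to 0.16 for TAP2, -0.13 to 0.29 for PSMB8 and -0.16 to 0.47 for PSMB9. They were -0.32 to 0.24 for PSMB10, -0.34 to 0.091 for PSMB6, -0.063 to 0.13 for PSME1, -0.021 to 0.088 for RFX5, -0.018 to 0.22 for RFXANK and -0.35 to 0.35 for IRF2. They were -0.17 to 0.038 for EZH2, -0.040 to 0.25 for JAK1, -0.0060 to 0.096 for PDIA3 and -0.016 to 0.20 for TAPBPL. The cause was not tested.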
